A study of Mus musculus with 12 samples.

Results

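The proximal tubule takes filtered protein back up through megalin (Lrp2) and cubilin (Cubn), large receptors of the apical membrane that bind albumin, vitamin carriers and many other ligands. Cubilin has no membrane anchor of its own and reaches the surface with amnionless (Amn), Dab2 links megalin to clathrin-coated pits, and the chaperone RAP (Lrpap1) keeps megalin from binding ligand while it folds. The chloride-proton exchanger Clcn5, the phosphoinositide phosphatase Ocrl and the lysosomal cystine exporter Ctns act in the endosomes and lysosomes that follow, and loss of any of them causes a proximal tubule disorder in humans (Dent disease, Lowe syndrome and cystinosis). These 8 genes, of 24421 gene symbols measured, were chosen by name, with no threshold on their values but with earlier results of these data known.

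RNA-seq libraries were made from kidneys of 6-week-old male C57BL/6 mice (C57BL/6J in the study's methods), with 3 libraries in each of 4 groups. The baseline groups were WT and Tet2-/- mice that had no operation, and the IR groups were WT and Tet2-/- mice whose right renal pedicle was clamped for 60 min, whose left kidney was then removed and whose right kidney was collected 24 h later. Ischemia, surgery and the loss of the other kidney therefore cannot be told apart in a comparison of IR with baseline. The label Tet2-/- stands for a loss of the gene in the whole animal, blood cells included, which the values of Tet2 given next do not check. Library totals, on the transcript with the highest count for each gene, ran from 51007366 to 107969888 counts. The 8 genes together took 0.272% to 0.403% of the counts in the 9 libraries of the other groups and 0.133% to 0.186% in the libraries labelled Tet2-/- after IR.

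The label of the knockout was first set against Tet2 itself, given in FPKM (fragments scaled to transcript length and library depth). Tet2 stood at 9.15, 6.25 and 7.33 in WT baseline libraries and at 9.25, 16.6 and 10.3 in the baseline libraries labelled Tet2-/-. After IR it stood at 9.34, 3.97 and 3.86 in WT libraries and at 2.64, 3.20 and 1.76 in those labelled Tet2-/-. At baseline Tet2 was thus not lower in the libraries labelled Tet2-/-, and reads outside a deleted segment would still be counted, so the total of a transcript does not check the label. The groups are named below by their labels.

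The libraries also differed in the levels of cell type markers. The 26 proximal tubule markers were all detected in every library, with a mean log2(FPKM + 0.1) of 7.64 to 8.13 in WT baseline, 7.45 to 7.99 in Tet2-/- labelled baseline, 7.05 to 7.64 in WT IR and 6.15 to 6.51 in Tet2-/- labelled IR libraries. Injured tubule markers (8 genes, Havcr1 and Lcn2 among them) summed to 228 to 540 FPKM at baseline, to 1676 to 7908 in WT IR and to 12038 to 25988 in Tet2-/- labelled IR libraries. The 7 neutrophil markers summed to 4.08 to 9.51 FPKM in WT IR and to 74.7 to 132.8 in Tet2-/- labelled IR libraries. The mean log2(FPKM + 0.1) of 7 adipocyte markers was 1.71 and 3.35 in WT baseline replicates 2 and 3 and 4.03 in Tet2-/- labelled IR replicate 3, against at most -0.11 elsewhere, and WT IR replicate 3 was low in endothelial and podocyte markers (5.53 and 3.43 summed FPKM). In whole kidney, fewer proximal tubule cells and less RNA per cell cannot be told apart.

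In WT kidneys at baseline, Lrpap1 was the most abundant of the 8 transcripts per length, at 167.5 ± 8.21 FPKM (SD, n = 3), and ranked 330th of 12107 genes whose mean FPKM reached 1. Amn (84.7 ± 17.1) and Lrp2 (83.8 ± 25.5) followed with overlapping ranges, and then Dab2 (50.1 ± 9.56) and Cubn (25.1 ± 8.05). The 3 genes of the endosome and lysosome stood far lower, with Ctns at 7.06 ± 0.536, Ocrl at 4.54 ± 0.204 and Clcn5 at 3.66 ± 2.63 FPKM. Neighbours in this order did not overlap between Lrpap1 and Amn, Dab2 and Cubn, Cubn and Ctns, or Ctns and Ocrl, whereas Lrp2 and Dab2, and Ocrl and Clcn5, overlapped. The baseline libraries labelled Tet2-/- gave the same order, and in WT IR libraries Dab2 moved to the place below Lrpap1 with a range that overlapped that of Lrp2. In the Tet2-/- labelled IR libraries Dab2 came first (95.6 ± 36.6 FPKM), above Lrpap1 (55.6 ± 1.86), Amn (40.1 ± 13.6) and Lrp2 (21.8 ± 2.43), and Ctns (9.39 ± 2.38) stood beside Cubn (8.77 ± 1.90). The place of Dab2 rests on 1 of its 5 transcripts, which share reads. Summed over them, which counts shared reads again, Dab2 averaged 275 and 260 FPKM in WT and Tet2-/- labelled baseline libraries. After IR the sums averaged 410 and 521 FPKM, and Dab2 was above Lrpap1 in all 4 groups.

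**Figure D1:**
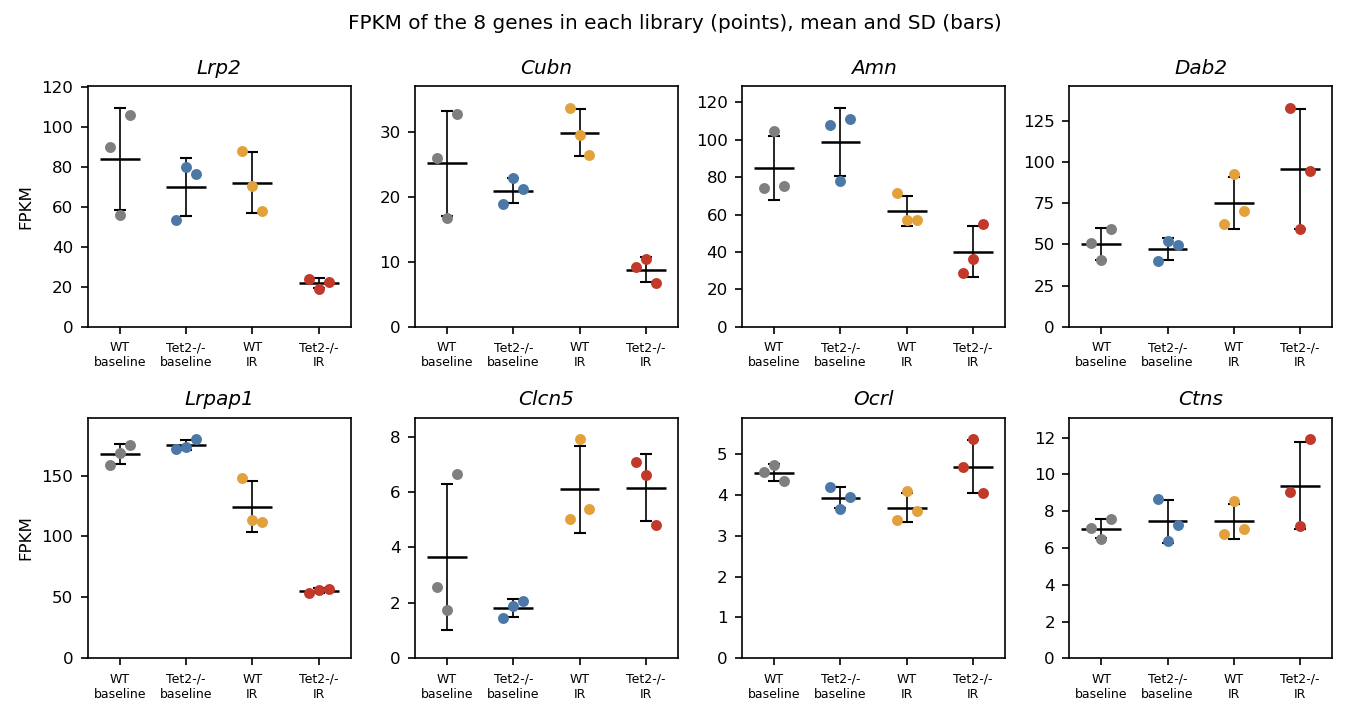
FPKM (linear axis from 0) of the 8 genes in each of the 12 libraries, 3 points per group, with the mean (line) and SD (bar). Lrp2, Cubn, Amn and Lrpap1 in the Tet2-/- labelled IR libraries lie below the points of every other group, while Dab2, Clcn5, Ocrl and Ctns do not.

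The comparison of genotypes without injury asks whether the machinery differs before IR. No member passed the test (edgeR's quasi-likelihood test, adjusted by Benjamini-Hochberg over all genes, where a gene was called if its adjusted p was under 0.05 with a log2 fold change beyond 1 in size), and none had an unadjusted p under 0.05. DESeq2 and limma called 0 members as well. Of 16086 genes tested, in the libraries labelled Tet2-/- 0% were called lower and 0.0124% higher, and 1891 genes had an unadjusted p under 0.05. DESeq2 called 23 genes higher and 297 lower.

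Lrp2 was at 89.6, 56.0 and 105.9 FPKM in WT and at 53.4, 79.7 and 76.4 in Tet2-/- labelled baseline libraries. The groups overlapped, with a log2 fold change of -0.17 ± 0.27 (SE) and an adjusted p of 0.795. Cubn behaved alike, with 25.9, 16.7 and 32.7 FPKM in WT against 18.9, 22.8 and 21.2 in Tet2-/- labelled libraries. In both genes replicate 2 was the lowest and replicate 3 the highest of the WT libraries, and the WT range held all Tet2-/- labelled values but the lowest of Lrp2. Clcn5 had the widest spread, at 2.58, 1.75 and 6.66 FPKM in WT and 1.47, 1.88 and 2.08 in Tet2-/- labelled libraries. Its log2 fold change of -0.93 ± 0.47 (adjusted p = 0.472) was set by WT replicate 3 and ran from -1.26 to -0.16 when single libraries were left out.

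The other 5 members had log2 fold changes between -0.12 (Ocrl) and 0.31 (Amn) at baseline. On counts scaled by TMM, the trimmed mean of M-values that edgeR uses, Lrpap1 was the one member whose groups did not overlap, above WT in every Tet2-/- labelled library with a log2 fold change of 0.15 ± 0.12. Of all genes tested, 7.93% were separated in that direction and 10.8% in the other. In FPKM the Lrpap1 ranges overlapped (158.8, 168.8 and 175.0 against 171.6, 173.4 and 179.7), and it was Ocrl whose ranges were separate (4.55, 4.73 and 4.33 against 4.19, 3.66 and 3.95).

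After IR, 3 of the 8 genes were lower in the libraries labelled Tet2-/- than in WT libraries: both receptors, Lrp2 (3.50-fold) and Cubn (3.66-fold), and the chaperone Lrpap1 (2.39-fold). The same rule called 3.85% of 16186 genes lower and 2.30% higher. No member was called higher by edgeR, DESeq2 or limma, and none had a positive fold change with an unadjusted p under 0.05.

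For megalin the WT IR libraries were at 87.9, 70.4 and 57.6 FPKM and the Tet2-/- labelled IR libraries at 23.8, 19.0 and 22.5. The highest of the Tet2-/- labelled values lay below the lowest WT value by more than the whole range of the Tet2-/- labelled group. The log2 fold change was -1.81 ± 0.22 with an adjusted p of 0.0114 (edgeR). Cubilin was at 33.6, 29.4 and 26.4 FPKM in WT and at 9.21, 10.4 and 6.70 in Tet2-/- labelled libraries, again with a gap between the groups. Its log2 fold change was -1.87 ± 0.17 (adjusted p = 0.00989), the largest of the 8 in size.

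Lrpap1 was at 148.3, 113.2 and 111.5 FPKM in WT IR libraries and at 53.5, 56.1 and 57.1 in those labelled Tet2-/-. The Tet2-/- labelled libraries were nearly equal to each other and all lower, with a log2 fold change of -1.26 ± 0.17 (adjusted p = 0.0127). Amn, the partner of cubilin, was at 71.4, 57.1 and 57.3 against 28.7, 36.4 and 55.2 FPKM. Replicate 3 of the Tet2-/- labelled group came close to the WT libraries, and the log2 fold change of -0.71 ± 0.27 did not pass (adjusted p = 0.141). Without that library, which is also the one high in adipocyte markers, Amn passed at -1.08 (adjusted p = 0.0347). This was the 1 pass among 6 fits with a library left out, which ran from -1.08 to -0.51 with adjusted p up to 0.327.

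The adaptor Dab2 was at 62.5, 92.5 and 70.3 FPKM in WT IR libraries and at 132.8, 59.6 and 94.5 in those labelled Tet2-/-, so that the lowest and the highest of the 6 libraries were both labelled Tet2-/-. Its log2 fold change of 0.27 ± 0.32 did not pass (adjusted p = 0.622). Clcn5 (5.01, 7.90 and 5.38 against 7.08, 6.60 and 4.79 FPKM) overlapped between the groups, with a log2 fold change of -0.08 ± 0.20. Ctns (6.79, 8.54 and 7.02 against 9.07, 7.19 and 11.9 FPKM) overlapped as well, with a log2 fold change of 0.26 ± 0.23. Ocrl was at 3.37, 4.08 and 3.61 FPKM in WT and at 4.69, 5.35 and 4.03 in Tet2-/- labelled libraries, a log2 fold change of 0.24 ± 0.13 (adjusted p = 0.275).

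On TMM-scaled counts Lrp2, Cubn and Lrpap1 were below WT in every Tet2-/- labelled IR library, as were 18.5% of all genes tested, and Ocrl was above WT in every library, as were 17.5%. In FPKM Amn was also separate (55.2 at most against 57.1 at least) and Ocrl overlapped. The 3 calls were kept when each of the 6 libraries was left out in turn, with log2 fold changes from -1.90 to -1.66 for Lrp2, from -1.96 to -1.75 for Cubn and from -1.35 to -1.13 for Lrpap1. In the same comparison 7 of 26 proximal tubule markers were called lower, the apical phosphate transporter Slc34a1 (-1.74 ± 0.29) and the water channel Aqp1 (-2.21 ± 0.39) among them, and the median of the 26 was -1.14 against 0.04 over all genes tested. Their part in the lower values of the receptors was not tested.

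**Figure D2:**
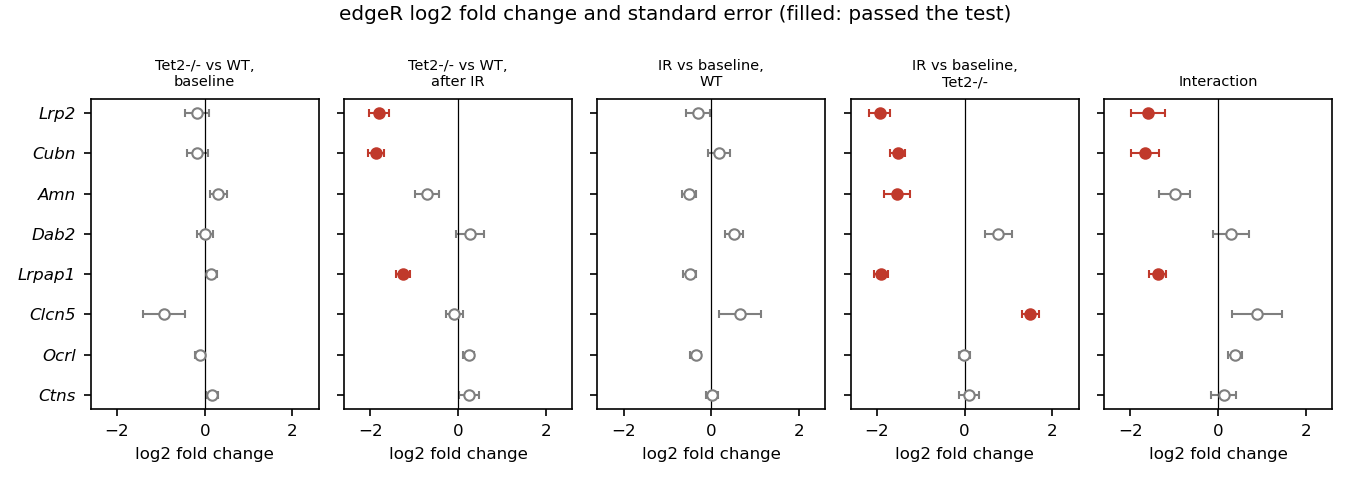
Log2 fold change (edgeR) with its standard error for the 8 genes in 4 comparisons and the interaction, on a shared axis. Filled points passed the test, which in the first 4 panels needs an adjusted p under 0.05 with a log2 fold change past 1, and in the interaction the adjusted p alone: 0 genes at baseline, 3 after IR, 0 for IR in WT, 5 for IR in Tet2-/- labelled libraries and 3 in the interaction.

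The IR effect within WT kidneys asks how the genes respond to injury with Tet2 present. No member passed the call with edgeR, DESeq2 or limma. With edgeR 4 (Amn, Dab2, Lrpap1 and Ocrl) had an unadjusted p under 0.05, as did 3640 of the 16015 genes tested. Of 16015 genes tested, 0.887% were called lower and 1.46% higher. With the replicate block the number of genes called rose from 376 to 987 and no member was added. The values in Lrp2 overlapped between baseline and IR (log2 fold change -0.30 ± 0.27, adjusted p = 0.558), and so did those in Cubn (0.18 ± 0.25, adjusted p = 0.722).

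Amn, Lrpap1 and Ocrl were below baseline in every WT IR library on TMM-scaled counts and in FPKM, a separation that 14.5% of all genes tested had, while 14.8% were separated upwards. Their log2 fold changes were -0.51 ± 0.17 (adjusted p = 0.140), -0.50 ± 0.15 (adjusted p = 0.125) and -0.36 ± 0.12 (adjusted p = 0.152). Dab2 was above baseline in every WT IR library in FPKM but not on TMM-scaled counts, with a log2 fold change of 0.52 ± 0.21 (adjusted p = 0.208). Clcn5 had a log2 fold change of 0.66 ± 0.49 (adjusted p = 0.462) that rose to 1.44 (adjusted p = 0.0825) without WT baseline replicate 3, its highest baseline library. In these libraries 5 of 8 injured tubule markers were called higher and 4 of 26 proximal tubule markers lower, the latter with a median of -0.59.

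In the libraries labelled Tet2-/-, IR moved 5 of the 8 genes past the call. The receptor and partner genes fell, Lrp2 by 3.83-fold, Lrpap1 by 3.76-fold, Amn by 2.92-fold and Cubn by 2.88-fold, and Clcn5 was 2.83-fold higher. Over 16359 genes 11.6% were called lower and 12.7% higher. Scaling by library size, without TMM, gave a split over all genes of 1397 lower and 2860 higher instead of 1896 and 2078, the median log2 fold change of all genes moved from 0.04 to 0.27, with the 5 members keeping their calls.

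The per-library values for the receptors went from 53.4, 79.7 and 76.4 to 23.8, 19.0 and 22.5 FPKM for Lrp2 and from 18.9, 22.8 and 21.2 to 9.21, 10.4 and 6.70 for Cubn. Neither gene overlapped between baseline and IR, with log2 fold changes of -1.94 ± 0.24 (adjusted p = 0.000874) and -1.53 ± 0.17 (adjusted p = 0.000577). Lrpap1 went from 171.6, 173.4 and 179.7 to 53.5, 56.1 and 57.1 FPKM, the most even of the changes, with a log2 fold change of -1.91 ± 0.15 (adjusted p = 0.00019). Amn went from 107.7, 77.8 and 110.9 to 28.7, 36.4 and 55.2 FPKM. It fell by 1.54 ± 0.29 on the log2 scale (adjusted p = 0.00464), and its lowest baseline library stayed above its highest IR library.

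Clcn5 moved the other way, from 1.47, 1.88 and 2.08 to 7.08, 6.60 and 4.79 FPKM. Every IR library was above every baseline library, with a log2 fold change of 1.50 ± 0.20 (adjusted p = 0.00112). Clcn5 has 2 transcripts in the files that share most of their reads. Counts summed over transcripts kept the call, but they hold mostly the same reads again and are no separate check. Dab2 was at 39.9, 52.2 and 49.9 FPKM at baseline and at 132.8, 59.6 and 94.5 after IR, a log2 fold change of 0.77 ± 0.31 that did not pass (adjusted p = 0.0795). Replicate 2 was the lowest IR library for Dab2, and without it the log2 fold change was 1.07 (adjusted p = 0.0090). This was the 1 pass among 6 fits with a library left out, which ran from 0.46 to 1.07 with adjusted p up to 0.258. Ocrl (-0.01 ± 0.12) and Ctns (0.10 ± 0.24) had log2 fold changes near 0, and their groups overlapped.

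Separation on TMM-scaled counts went with the calls here, for Lrp2, Cubn, Amn and Lrpap1 below baseline, as for 27.3% of all genes tested, and for Clcn5 above it, as for 29.5%. In FPKM Dab2 was separate too. In this comparison 16 of 26 proximal tubule markers were called lower (median -1.44), 7 of 8 injured tubule markers higher (median 5.94), 7 of 7 neutrophil markers higher and 6 of 6 podocyte markers higher. Whether these markers and the 8 genes moved together within the cells was not tested.

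The interaction over all 12 libraries tests whether the IR effect differed between the genotypes. It passed for Lrpap1 (-1.37 ± 0.19, adjusted p = 0.00395), Cubn (-1.66 ± 0.32, adjusted p = 0.0118) and Lrp2 (-1.59 ± 0.38, adjusted p = 0.0278), each more negative in the libraries labelled Tet2-/-. At an adjusted p under 0.05, 5.39% of 16741 genes were lower and 3.79% higher. Scaling by library size alone turned this split to 700 lower and 1129 higher, and the 3 members kept their calls and direction. The interaction was -0.99 ± 0.35 for Amn (adjusted p = 0.10), 0.89 ± 0.57 for Clcn5 (adjusted p = 0.346), 0.39 ± 0.16 for Ocrl (adjusted p = 0.131), 0.30 ± 0.41 for Dab2 and 0.13 ± 0.30 for Ctns, none of which passed.

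The call for Lrp2 was lost when Tet2-/- labelled baseline replicate 2 or 3 or WT IR replicate 1 was left out, the highest adjusted p being 0.0681. For Amn, leaving out Tet2-/- labelled IR replicate 3 gave -1.36 (adjusted p = 0.0157), the 1 pass among 12 such fits, which ran from -1.36 to -0.80. Without the 3 libraries high in adipocyte markers, a choice made after the data were seen that leaves 1 WT baseline library, the interaction was -1.63 for Lrp2, -1.55 for Cubn and -1.57 for Lrpap1, with adjusted p of 0.103, 0.0731 and 0.0731. In that fit 3 of all genes tested passed, and 0 of the 8 did.

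The 3 genes that passed after IR are shown here by their promoters, since they changed together and since a shared short motif can be looked for in them. Each sequence runs 5′ to 3′ on the strand of the gene, from 250 bases before to 50 bases after a RefSeq start site on GRCm38.p6 (Lrp2 chr2:69585980-69586279, Cubn chr2:13491827-13492126 and Lrpap1 chr5:35105650-35105949, all on the minus strand). Capitals mark the GC box GGGCGG on either strand. The other 3 motifs searched, named after the sequences, were on neither strand of these windows.
Lrp2: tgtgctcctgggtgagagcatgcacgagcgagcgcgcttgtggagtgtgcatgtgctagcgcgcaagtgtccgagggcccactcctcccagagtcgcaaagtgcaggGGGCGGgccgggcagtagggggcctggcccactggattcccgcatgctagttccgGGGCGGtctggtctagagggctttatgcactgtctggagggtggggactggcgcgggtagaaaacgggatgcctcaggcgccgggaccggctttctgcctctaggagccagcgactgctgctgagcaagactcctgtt
Cubn: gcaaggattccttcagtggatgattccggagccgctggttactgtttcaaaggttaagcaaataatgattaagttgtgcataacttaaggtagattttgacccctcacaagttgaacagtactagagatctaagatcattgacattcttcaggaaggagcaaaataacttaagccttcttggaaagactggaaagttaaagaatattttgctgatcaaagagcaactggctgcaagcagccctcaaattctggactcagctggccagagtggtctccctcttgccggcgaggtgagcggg
Lrpap1: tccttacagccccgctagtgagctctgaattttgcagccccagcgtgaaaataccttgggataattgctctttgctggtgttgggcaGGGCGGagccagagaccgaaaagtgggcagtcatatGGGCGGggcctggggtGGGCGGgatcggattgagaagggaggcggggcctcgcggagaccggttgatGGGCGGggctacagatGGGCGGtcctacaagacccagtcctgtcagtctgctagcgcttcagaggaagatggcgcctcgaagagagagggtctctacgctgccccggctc

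The Lrp2 window held 2 GC boxes, the Lrpap1 window 5 and the Cubn window 0, and 35.7% of 32851 mouse promoter windows of the same length held at least 1. Members not called between genotypes after IR held GC boxes too: 2 in the Ocrl window and 1 each in windows of Amn, Ctns and Clcn5. The GC content was 65%, 61.3% and 44.3% for Lrp2, Lrpap1 and Cubn. The nuclear receptor half-site AGGTCA was in 16.3% of windows, that of Ctns among them. The E-box CACGTG was in 7.15%, and in the Amn window 26 bases before the start. The TATA box, searched as TATAAA, was in 13.6%, and in another Clcn5 window 172 bases before the start. No motif searched was in all of the windows of Lrp2, Cubn and Lrpap1. The same bases were found on mm9, the build of the files, where the window's start site lay 38, 0 and -2 bases downstream of the counted transcript's start for Lrp2, Cubn and Lrpap1.

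The members are spread over the genome, on mm9. Lrp2 (NM_001081088, chr2:69262392-69424124) and Cubn (NM_001081084, chr2:13197965-13413503) share chromosome 2 but lie far apart on it, and both have long transcripts, of 15386 and 11256 bases. Amn (NM_033603, chr12:112509307-112514637), Lrpap1 (NM_013587, chr5:35434155-35448346) and Ctns (NM_031251, chr11:72996635-73012521) have 1 transcript each in the files, of 1686, 2897 and 2997 bases. Dab2 (NM_023118, chr15:6336748-6390709) has 5 transcripts there that share reads, so its level as a gene is uncertain, and Clcn5 (NM_016691, chrX:6735538-6765840) and Ocrl (NM_177215, chrX:45265633-45319043) are X-linked. The lowest count of any member in any library was 415, for Clcn5, and all 8 passed the filter on low counts in all 4 comparisons and the interaction. Among genes with transcripts over 8 kb the median log2 fold change between genotypes was -0.18 at baseline, close to the values of Lrp2 (-0.17) and Cubn (-0.17) there, and 0.04 after IR. For IR the median of these genes was -0.05 in WT and 0.16 in Tet2-/- labelled libraries.

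Ratios within a library do not depend on its scaling, and show which partners changed by unlike amounts. The ratio of Lrp2 to Cubn was 3.46, 3.35 and 3.23 in WT baseline libraries and 2.61, 2.39 and 2.18 in WT IR libraries, with no overlap. In Tet2-/- labelled libraries it was 2.83, 3.49 and 3.61 at baseline and 2.58, 1.83 and 3.35 after IR, where the groups overlapped. Lrpap1 to Lrp2 had a mean log2 ratio of 1.05 ± 0.47, 1.35 ± 0.30, 0.80 ± 0.14 and 1.36 ± 0.19 (SD, n = 3) in WT baseline, Tet2-/- labelled baseline, WT IR and Tet2-/- labelled IR libraries, so that chaperone and receptor stayed within 1.61- to 3.21-fold of each other in all 12 libraries.

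Cubn to Amn was 0.349, 0.160 and 0.435 in WT baseline, 0.175, 0.293 and 0.191 in Tet2-/- labelled baseline, 0.471, 0.515 and 0.461 in WT IR and 0.321, 0.286 and 0.121 in Tet2-/- labelled IR libraries. After IR it was lower in every library labelled Tet2-/- than in WT libraries. The WT IR libraries were above all the others, and the Tet2-/- labelled libraries overlapped between baseline and IR (geometric means of 0.214 and 0.223). The widest change was that of Dab2 to Lrp2. It stood at 0.564, 0.720 and 0.561 in WT baseline, 0.747, 0.655 and 0.653 in Tet2-/- labelled baseline and 0.711, 1.31 and 1.22 in WT IR libraries, and at 5.59, 3.13 and 4.21 in Tet2-/- labelled IR libraries. The counted transcript of the adaptor thus went from below that of megalin at baseline to 4.19-fold above it (geometric mean) in the Tet2-/- labelled IR libraries. Summed over its 5 transcripts, which counts shared reads again, Dab2 was above Lrp2 at baseline too. The means were 275 against 83.8 FPKM in WT and 260 against 69.8 in Tet2-/- labelled libraries, so its side of megalin at baseline is uncertain. Dab2 is also made by other kidney and immune cells. Macrophage markers summed to 65.7 to 242 FPKM in the Tet2-/- labelled IR libraries against 35.4 to 76.6 in WT IR libraries. Between these groups 9 of 10 tested markers had a positive log2 fold change and 1 a negative one, Csf1r (means of 4.53 against 8.81 FPKM). Replicate 2, with the highest sum, had Lyz2 at 119.7 FPKM and the lowest Dab2 to Lrp2 ratio of the Tet2-/- labelled IR libraries (3.13). The part of these cells in the ratio was not tested.

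**Figure D3:**
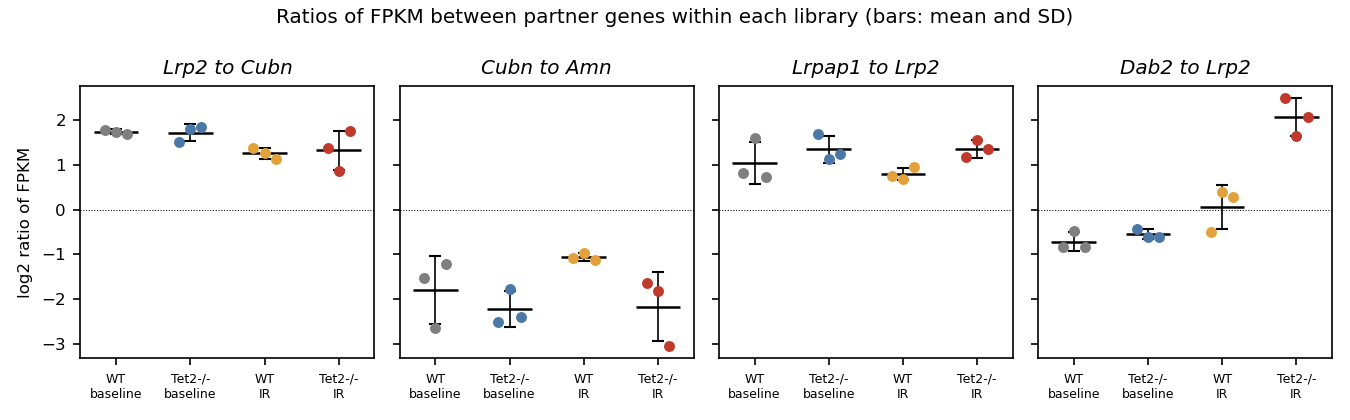
Log2 ratio of FPKM between partner genes within each of the 12 libraries, with the group mean (line) and SD (bar), and 0 (equal FPKM) dotted. Dab2 to Lrp2, on the Dab2 transcript counted, lies below 0 in all baseline libraries and between 1.65 and 2.48 in the Tet2-/- labelled IR libraries.

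Set against the proximal tubule markers of the same library (the gene's log2(FPKM + 0.1) minus the mean of the 26), Lrp2 stood at -1.49 ± 0.31 in WT baseline, -1.59 ± 0.41 in Tet2-/- labelled baseline, -1.19 ± 0.60 in WT IR and -1.94 ± 0.06 in Tet2-/- labelled IR libraries (SD, n = 3). The Tet2-/- labelled IR values (-1.94, -1.89 and -2.01) were below all 3 WT IR values (-0.59, -1.20 and -1.79), the nearest by less than the spread within WT IR. Cubn (-3.31 and -3.26) and Lrpap1 (-0.25 and -0.59) had means in the Tet2-/- labelled baseline and IR libraries that differed by less than 1 log2 unit, with overlapping libraries. Between WT IR and Tet2-/- labelled IR libraries both genes overlapped as well on this scale, with means of -2.44 ± 0.47 and -3.26 ± 0.49 for Cubn and of -0.39 ± 0.51 and -0.59 ± 0.22 for Lrpap1. Amn was at -1.09 ± 0.16 in Tet2-/- labelled baseline, -1.39 ± 0.46 in WT IR and -1.11 ± 0.49 in Tet2-/- labelled IR libraries.

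The marker mean itself was 7.70 ± 0.27 in Tet2-/- labelled baseline and 6.39 ± 0.21 in Tet2-/- labelled IR libraries, so a gene with an unchanged level stands higher on this scale after IR by that difference. For Ocrl and Ctns the edgeR log2 fold changes in this comparison were -0.01 and 0.10, so most of their shift on this scale is that of the markers. From Tet2-/- labelled baseline to IR libraries, Dab2 went from -2.14 ± 0.34 to 0.12 ± 0.40, Clcn5 from -6.78 ± 0.28 to -3.76 ± 0.41, Ocrl from -5.69 ± 0.24 to -4.14 ± 0.39 and Ctns from -4.79 ± 0.29 to -3.17 ± 0.22. In each of the 4 genes all 3 IR libraries lay above all 3 baseline libraries on this scale. The share of all genes that did so was not computed, so this separation is not a result about these genes. On TMM-scaled counts Clcn5 was separate, while Dab2, Ocrl and Ctns overlapped. In Lrp2, Cubn, Amn and Lrpap1 the baseline and IR libraries overlapped on the marker scale. This is a description without a test.

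**Figure D4:**
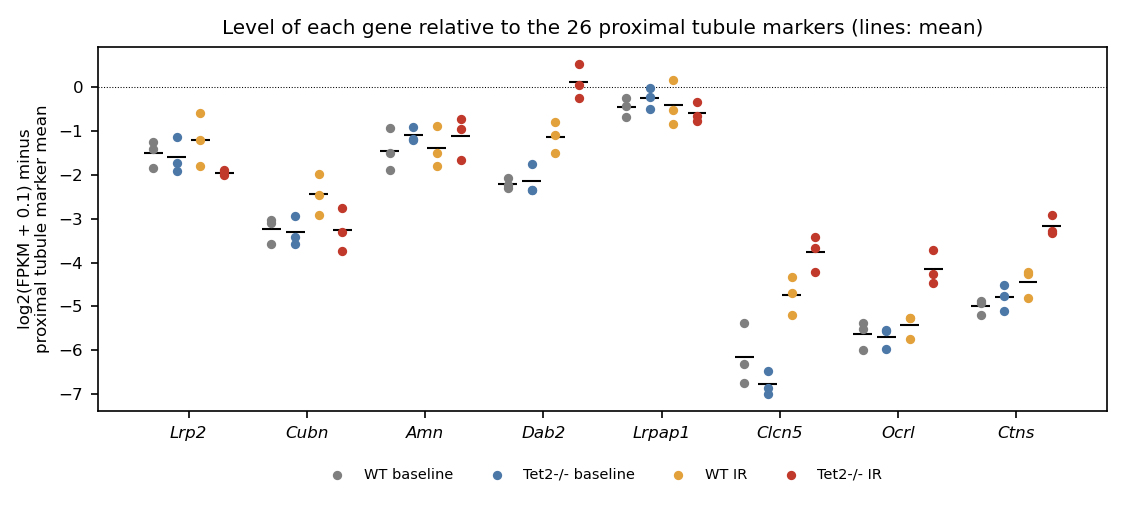
Log2(FPKM + 0.1) of each gene minus the mean over 26 proximal tubule markers in the same library, 1 point per library and a line at the group mean. The points of Lrp2, Cubn, Amn and Lrpap1 overlap between Tet2-/- labelled baseline and IR libraries, and Dab2, Clcn5, Ocrl and Ctns are highest in the Tet2-/- labelled IR libraries, where the marker mean is lowest. A gene with an unchanged level also stands higher there, and the share of all genes that do so was not computed.

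Across the 12 libraries the genes with the pattern most like that of Lrp2 in log2(FPKM + 1), by Pearson correlation among 12212 genes, included Pex7 (0.98), Mgat3 (0.98), Aldh5a1 (0.98) and Mcur1 (0.98). For Cubn they were Srr (0.97), Pdzd2 (0.97), P4hb (0.97), Ptgr2 (0.97) and Prok1 (0.96). Cubn itself stood 127th by likeness to Lrp2 (0.93) and Lrpap1 211th (0.91), while Amn was at 0.69 and Dab2 at -0.48. The points of these correlations share their libraries and the 4 groups, so the values are a description.

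The wider endocytic and lysosomal machinery was read in 7 lists of 164 genes, of which 160 were tested. In the comparison of genotypes after IR, 3 were called higher and 3 lower (3.75% of 160). At baseline none was called by edgeR. For IR in WT 2 were called, for IR in Tet2-/- labelled libraries 16 and in the interaction 12 (7.50%). Each of these shares was below that over all genes, both directions together, and the list medians after IR ran from -0.39 to 0.14 against -1.14 for the proximal tubule markers.

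Among the 18 tested receptors related to megalin or to lysosomal sorting, 1 was lower after IR in Tet2-/- labelled than in WT libraries and 1 higher. Lrp4, a receptor related to megalin, went from 3.37, 2.87 and 2.52 FPKM in WT to 1.93, 1.40 and 1.04 in Tet2-/- labelled libraries, with no overlap (log2 fold change -1.10 ± 0.23, adjusted p = 0.0313). The HDL receptor Scarb1 went from 3.14, 5.56 and 4.40 to 8.53, 11.7 and 8.84 FPKM, again separate (1.05 ± 0.23, adjusted p = 0.0352). For IR, the reelin receptor Lrp8 was called higher in WT (1.56 ± 0.27, adjusted p = 0.0347) and in Tet2-/- labelled libraries (3.21 ± 0.36, adjusted p = 0.000595), from at most 0.480 FPKM in any baseline library to between 0.819 and 3.05 in the IR libraries. Scarb2, the lysosomal receptor of glucocerebrosidase, was also higher with IR in Tet2-/- labelled libraries (1.30 ± 0.19). Lrp1 (0.53 ± 0.43), named after its value was seen, was not called between genotypes after IR.

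Of the 32 genes for adaptors, the clathrin coat and scission, 2 were called higher after IR in the libraries labelled Tet2-/- and 0 lower. Among them Bin1, an amphiphysin that bends membrane, went from 7.07, 8.87 and 10.8 to 20.3, 21.4 and 25.6 FPKM (log2 fold change 1.23 ± 0.23, adjusted p = 0.0244). All Tet2-/- labelled IR libraries were above all other libraries, and Bin1 was also higher with IR in Tet2-/- labelled libraries, by 1.44 ± 0.16 on the log2 scale. Epn2, an epsin, and Ap2b1, a subunit of the AP2 coat adaptor, passed in the interaction (1.15 ± 0.24 and 0.67 ± 0.19). Clathrin heavy chain Cltc, named after its value was seen, was not called after IR between genotypes (0.09 ± 0.16).

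Of 33 early and recycling endosome genes none was called between genotypes after IR with edgeR, at a median of -0.07. With IR in Tet2-/- labelled libraries the recycling protein Ehd4 was higher (1.57 ± 0.18, adjusted p = 0.000597) and Rab11fip3, an effector of Rab11, lower (-1.13 ± 0.30, adjusted p = 0.0184). Rab5c, a small GTPase of early endosomes, passed in the interaction with a lower value (-0.73 ± 0.21). Of 29 genes for acidification, the proton pump subunits Atp6v0e2 (-1.35 ± 0.14) and Atp6v1c2 (-1.14 ± 0.21) were lower with IR in Tet2-/- labelled libraries and none was called between genotypes after IR.

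Of 22 lysosomal genes, the beta-galactosidase gene Glb1 was lower with IR in Tet2-/- labelled libraries (-1.25 ± 0.16). Among 14 ligands and genes for their handling, the folate receptor Folr1 was lower after IR between genotypes (-1.02 ± 0.18, adjusted p = 0.0216). Ttr, which carries thyroxine and the retinol-binding protein, was lower with IR in WT (-2.08 ± 0.21, adjusted p = 0.00842) and in Tet2-/- labelled libraries (-2.46 ± 0.56, adjusted p = 0.0108). The lipase Lpl (-2.63 ± 0.39) and Tcn2, the carrier of vitamin B12 that megalin takes up (-1.29 ± 0.24), were also lower with IR in Tet2-/- labelled libraries. Of 12 transcription factors 0 were called between genotypes after IR by edgeR at a log2 fold change past 1.

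**Figure D5:**
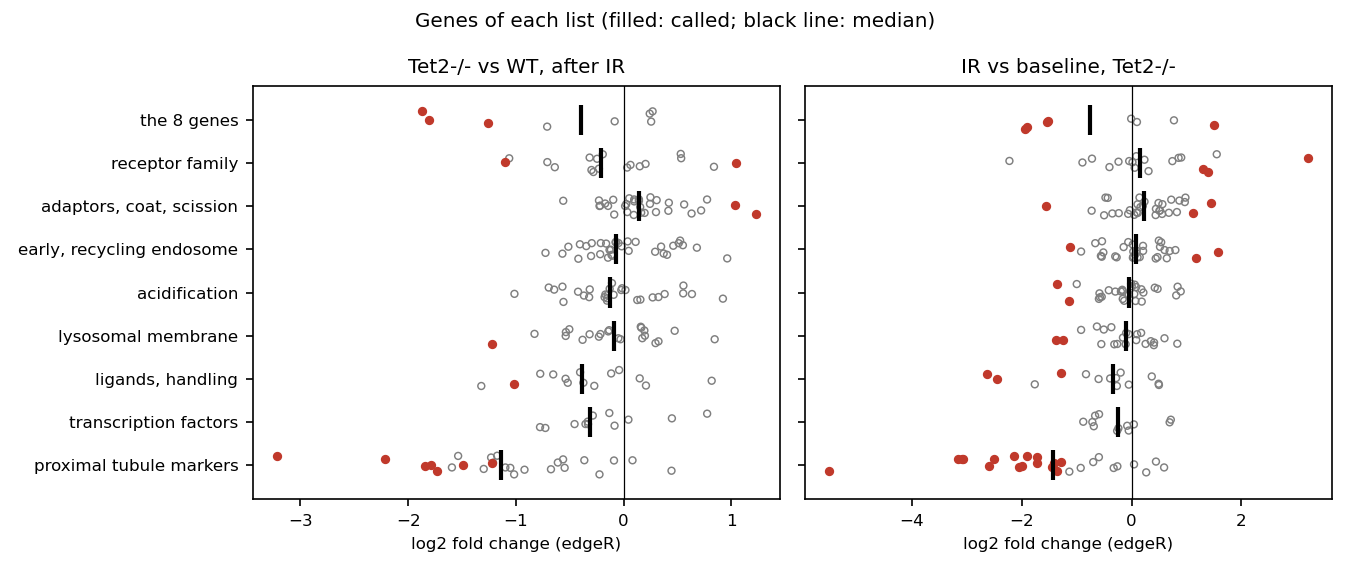
Log2 fold change (edgeR) of every tested gene of the 8 members, the 7 pathway lists and the proximal tubule markers, for Tet2-/- labelled against WT libraries after IR (left) and for IR against baseline in Tet2-/- labelled libraries (right). Filled points were called and the black line is the list's median, which after IR is -0.40 for the 8 genes, between -0.39 and 0.14 for the pathway lists and -1.14 for the markers.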

How the data were processed

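RNA was isolated from 12 kidneys, 3 per group. Per the labels and the study's methods the authors used STAR to align reads to mm9 and HOMER to count them over RefSeq genes. The authors deposited expected counts per transcript, without normalization, and FPKM. The counts rise in steps of 0.5, 38.7% are not whole, and they were rounded before testing, although whole counts had been assumed. For each symbol the transcript with the highest total of 34600 was used. Strandedness is not given in the sources used here.

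Each comparison used its 6 libraries in edgeR 4.0.16 (R 4.3.3): TMM, its standard filter on low counts, the quasi-likelihood test, and adjustment by Benjamini-Hochberg over every gene tested. A call needed an adjusted p under 0.05 together with a log2 fold change beyond 1. The interaction used all 12 libraries and the adjusted p alone. Fold changes are edgeR's, and SE is the log2 fold change divided by the root of F. The script was tested on simulated data. Each library is 1 mouse as far as the sources say, and an exact permutation test of 3 against 3 cannot go below 0.1. Alternatives were DESeq2 1.42.0, limma 3.58.1 on log2(FPKM + 1) and log2(FPKM + 0.1), other scalings and filters, a replicate block, a length trend, summed transcripts, all 12 libraries and each library left out. Figures were drawn with matplotlib 3.10.9.

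The members and lists were chosen with earlier results of these data known. Named genes are the 8 members, Tet2, per pathway list and comparison the called genes with the largest and the smallest log2 fold change if 1 group's mean FPKM reached 1, and the 5 genes most correlated with Lrp2 or Cubn. Outside this rule, Slc34a1, Aqp1, Havcr1, Lcn2, Csf1r and Lyz2 are examples from the cell marker lists, and Lrp1 and Cltc were named after their values were seen. Same-numbered baseline and IR libraries of WT mice had deviations from their group means that correlated at 0.36, 0.27 and 0.28. Those with unlike numbers were at -0.34 to -0.03. Deviations from a mean of 3 libraries cancel out, which partly forces such opposite signs. In Tet2-/- labelled libraries the same-numbered values were 0.07, 0.28 and 0.26. By the study's methods baseline and IR mice were different animals, and no label pairs them, so these values do not establish pairs. Counting error is small beside the spread between mice at these depths. Promoters are from RefSeq (GRCm38.p6), and all 8 members matched. Some genes of the lists are counted in their list but not reported here by name.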

Additional observations from a re-analysis of the deposited data

Results flagged for a closer look

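The IR effect differed between the genotypes, by the interaction test in edgeR (adjusted p under 0.05), for 3 of the 8 genes: Lrp2 (-1.59), Cubn (-1.66) and Lrpap1 (-1.37), as log2 differences of the IR effect in Tet2-/- labelled minus WT libraries. Among the genes named from the pathway lists the same difference was positive for Lrp8 (1.69), Ap2b1 (0.67), Bin1 (1.03), Ehd4 (1.85) and Epn2 (1.15). It was negative for Glb1 (-0.82) and Rab5c (-0.73). With the 3 libraries high in adipocyte markers left out, 0 of the 8 members passed, and Lrp2 also lost its call without any of 3 single libraries.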

How the results depend on the processing

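Of the values recomputed for the members under the alternatives, 0 reversed a called direction. The members called stayed at 0, 3, 0 and 5 in the baseline, after-IR, WT and Tet2-/- labelled comparisons under every alternative other than leaving out libraries, and each called member kept its call when any single library of these comparisons was left out, which gave 0, 3 to 4, 0 and 5 to 6 members called and 2 to 4 in the interaction. The replicate block gave 0, 3, 0, 5 and 3 members called (interaction last), the same numbers as without it, and it changed no call of a member. In the interaction 0 members passed with the adipocyte-high libraries left out, an alternative chosen after the data were seen, and leaving out those 3 libraries leaves fewer degrees of freedom and 1 WT baseline library, which is assumed to vary like the others. Signs changed under some settings only for members not called: Lrp2, Cubn and Dab2 at baseline, Dab2, Clcn5 and Ctns after IR, Cubn and Ctns with IR in WT, Ocrl and Ctns with IR in Tet2-/- labelled libraries, and Dab2 and Ctns in the interaction.

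Counts over all genes moved more. At baseline 2 genes were called, against 320 by DESeq2, 4 without the filter and 4 with the replicate block, and 2 to 10 with single libraries left out. After IR 996 were called, against 1655 by DESeq2, 1593 in a fit of all 12 libraries and 595 by limma on log2(FPKM + 1), and 294 to 942 with single libraries left out. For IR in WT 376 were called, against 982 by DESeq2, 987 with the replicate block, 885 with the block and the length trend removed, 631 over all 12 libraries, 236 by limma on log2(FPKM + 1) and 1 without the adipocyte-high libraries, and 87 to 548 with single libraries left out. For IR in Tet2-/- labelled libraries 3974 were called, against 2256 by limma on log2(FPKM + 1). In the interaction 1536 passed, against 2810 by DESeq2 and 3 without the adipocyte-high libraries, and 697 to 2044 with single libraries left out. The causes were not tested.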
